A study of Mus musculus with 12 samples.

Results

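The data are the levels of 1224 NONCODE transcripts in mouse liver, out of 68303 NONCODE rows in a table of 169430 transcript rows. NONCODE is a database of noncoding RNAs, and its mouse transcripts carry identifiers that begin with NONMMUT. A row was taken if its mean over the 12 livers was 0.5 FPKM or more (a fragment number scaled by transcript length and library size) and its span overlapped the span of no Ensembl row of the table on either strand. These transcripts were thus picked by their measured level, and 10 NONCODE rows were left out after earlier results of these data were known. Of those 10, 3 would have been members and 7 overlap an Ensembl row. The members are NONCODE transcripts outside the spans of the table's Ensembl rows, and this does not keep them clear of every coding gene. In full or in part, 333 of them (27.2%) overlap the span of a coding gene in GENCODE M21 or RefSeq, 237 of them on the gene's own strand. Another 390 (31.9%) overlap a lncRNA gene, 44 a pseudogene, 12 a small or ribosomal RNA gene, and 445 (36.4%) none of these. Each member is counted once, in the first of these classes that it overlaps.

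Total RNA was sequenced from livers of C57/BL6N mice to follow RNA changes in a carbon tetrachloride (CCl4) model of liver fibrosis and under treatment with either of 2 plant compounds. Each of the 4 groups has 3 livers. The control group is labelled WT. The model, silibinin and phloridzin groups all received CCl4 in olive oil, injected intraperitoneally over 8 weeks with 2 weekly doses of 5 mL/kg. The silibinin group also received silibinin, a flavonolignan of milk thistle, from week 5, and the phloridzin group received phloridzin, a glucoside of phloretin, from week 5 at the study's high dose. Library sizes, recovered from the spacing of the deposited values, were smallest in model 1 (83.7 M fragments) and largest in silibinin 2 (111 M fragments). A member had a median of 114 fragments per liver.

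Transcripts that lie between annotated genes have several origins. Some are lncRNAs with their own promoter and splicing, some are RNA copied beyond the 3′ end of a coding gene, and some are remains of primary microRNA (miRNA) transcripts, from which the enzyme Drosha cuts the hairpin. A change of such a transcript in whole liver can come from fewer cells of a type or from less RNA per cell, and bulk values cannot tell these apart.

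Mature miRNA sequences are given first, because 20 members hold or lie within 1000 bases of a miRNA hairpin. For 16 of them, at hairpins with a sequence entry, this is on the same strand, and these carry the precursor or its flanks. For the others the strand was not compared. The 20 members belong to 20 miRNA genes, of which 17 had a sequence entry. For each of 14 miRNAs whose members are named below, 1 arm is shown. Sequences run 5′ to 3′ in RNA letters, are from RefSeq GRCm38.p6, and show the seed (bases 2 to 8) in capitals.

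mmu-miR-148a-3p: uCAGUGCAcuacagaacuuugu
mmu-miR-23a-3p: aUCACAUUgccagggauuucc
mmu-miR-27a-3p: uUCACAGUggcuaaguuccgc
mmu-miR-24-3p: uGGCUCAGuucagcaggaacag
mmu-miR-142a-3p: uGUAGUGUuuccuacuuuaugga
mmu-miR-146a-5p: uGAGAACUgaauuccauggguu
mmu-miR-221-3p: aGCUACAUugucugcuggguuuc
mmu-miR-222-3p: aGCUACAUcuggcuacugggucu
mmu-miR-29a-3p: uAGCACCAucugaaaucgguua
mmu-miR-29b-3p: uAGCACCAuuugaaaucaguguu
mmu-miR-192-5p: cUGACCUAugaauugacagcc
mmu-miR-194-5p: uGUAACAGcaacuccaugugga
mmu-miR-802-5p: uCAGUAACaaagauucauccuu
mmu-miR-193a-3p: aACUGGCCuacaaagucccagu

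On GRCm38 the arms of miR-148a-3p (chr6:51269829-51269850, minus strand), miR-23a-3p (chr8:84208563-84208583), miR-27a-3p (chr8:84208727-84208747) and miR-24-3p (chr8:84208875-84208896) lie beside called members. The 23a, 27a and 24 hairpins follow each other on the plus strand of chromosome 8. Other arms are miR-142a-3p (chr11:87756903-87756925), miR-221-3p (chrX:19146307-19146329, minus strand) and miR-222-3p (chrX:19146901-19146923, minus strand). In the set shown, miR-29a-3p and miR-29b-3p share 1 seed, and so do miR-221-3p and miR-222-3p.

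The second set holds the promoter of the lncRNA gene Gm36419 and the first bases of 3 members, because these members are described below and start at a RefSeq start or in an annotated exon. The promoter spans 250 bases before to 50 after the RefSeq start and is chr19:32543097-32543396, plus strand. Capitals mark a motif match on either strand.

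Gm36419 promoter: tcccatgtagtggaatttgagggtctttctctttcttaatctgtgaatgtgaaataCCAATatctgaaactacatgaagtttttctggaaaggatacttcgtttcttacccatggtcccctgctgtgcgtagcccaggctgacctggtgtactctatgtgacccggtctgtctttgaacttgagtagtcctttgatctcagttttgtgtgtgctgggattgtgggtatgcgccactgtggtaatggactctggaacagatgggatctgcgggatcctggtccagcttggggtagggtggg

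NONMMUT034473.2 and NONMMUT034474.2 start at this promoter. It holds 1 CCAAT, at base -194 from the start, a motif found in 37.4% of 32851 RefSeq promoters of the same size. It holds no TATAAA (13.6% of promoters), no GGGCGG (35.7%) and no TGANTCA (7.81%).

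NONMMUT025978.2: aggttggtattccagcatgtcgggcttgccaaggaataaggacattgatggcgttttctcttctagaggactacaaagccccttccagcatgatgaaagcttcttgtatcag
NONMMUT047548.2: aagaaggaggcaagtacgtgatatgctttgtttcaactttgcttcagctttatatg
NONMMUT016693.2: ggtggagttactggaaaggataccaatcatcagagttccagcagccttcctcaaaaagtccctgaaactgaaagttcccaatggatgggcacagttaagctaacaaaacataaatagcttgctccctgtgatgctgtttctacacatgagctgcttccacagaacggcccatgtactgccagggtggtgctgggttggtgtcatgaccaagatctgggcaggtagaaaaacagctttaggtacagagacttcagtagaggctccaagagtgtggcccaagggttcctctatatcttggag

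NONMMUT025978.2 begins with the 112 bases at chr16:23192150-23192261 in an exon of the lncRNA gene B630019A10Rik, and NONMMUT047548.2 with the 56 bases at chr4:61783123-61783178 in an exon of Gm13775. The first 300 bases of NONMMUT016693.2, at chr13:24291506-24291805 on the minus strand, lie in the pseudogene Gm11340. These are from GENCODE M21.

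The members are low and mostly unspliced. Their median of mean FPKM was 0.864 (quartiles 0.639 and 1.502), 513 reached a mean of 1, 70 a mean of 5 and 34 a mean of 10, and 1130 were above 0 in all 12 livers. They form 1097 loci, of which 1025 hold 1 member and 72 hold more, and lie on 22 chromosomes, with 120 on chromosome 2 and 113 on chromosome 12. For 966 members (78.9%) the values give whole fragment numbers at a transcript length equal to the genomic span, within a tolerance of 0.02, so these models are single unspliced blocks. The share was 81.7% among 7281 tested NONCODE rows that overlap an Ensembl row. The median distance to the nearest Ensembl row was 4812 bases, and 623 members lay within 5000 bases. On the gene's own strand past its 3′ end lay 557 members, 315 of them within 5000 bases, and before its 5′ end lay 190. On the opposite strand, 341 lay before the 5′ end and 136 past the 3′ end. Some 28 members had a group mean of 0.5 or more in exactly 1 group, namely 16 in model, 7 in control, 4 in silibinin and 1 in phloridzin. A member that reached the level threshold through 1 group had to differ between groups, so no test is given for those named below. The same holds for NONMMUT146349.1, NONMMUT038016.2 and NONMMUT146580.1, which had only 1 liver above 0.5 FPKM outside the model group. The level threshold itself falls between near-equal rows: NONMMUT131301.1, at a mean of 0.500013, is a member, and NONMMUT105520.1, at 0.499556, is not.

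**Figure D1:**
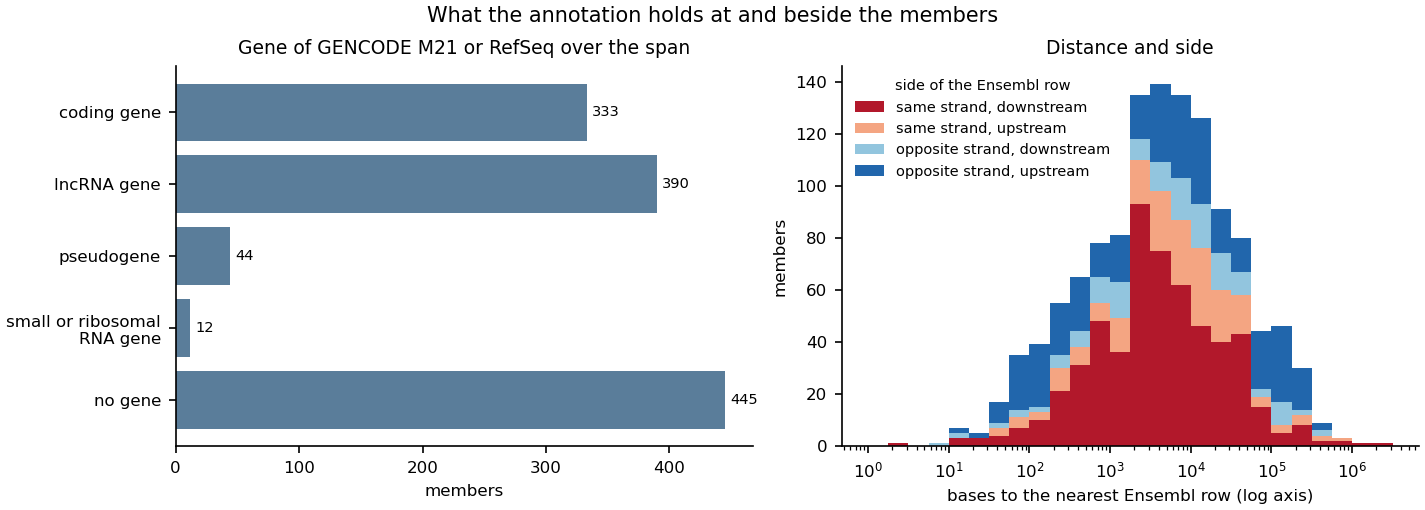
Left, the number of members by the kind of gene of GENCODE M21 or RefSeq over their span. Right, the distance of each member to its nearest Ensembl row in bases on a log axis, stacked by side and strand; 557 of the 1224 members lie on the same strand past the row's 3′ end.

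The most abundant member, NONMMUT029642.2 (chr17:39843013-39846341, plus strand, GRCm38), lies over Gm26917 at a ribosomal RNA repeat. Whether its reads come from ribosomal RNA was not tested. The member was at 8852, 9006 and 5788 FPKM in the control livers, 14109, 10677 and 9913 in the model livers, 7447, 7366 and 7803 with silibinin and 8893, 8382 and 8041 with phloridzin. Every model liver was above every other liver, and the change was not called (log2 fold change 0.56, SE 0.17, limma with Benjamini-Hochberg adjusted p 0.0533). After median-ratio scaling it was 0.10, and model and control livers overlapped. NONMMUT033452.2 (chr19:4062439-4065879), 2993 bases before Gstp3, had a mean of 184 FPKM. NONMMUT071607.2, on the strand opposite to mt-Cytb in the mitochondrial genome, had a mean of 152. NONMMUT024712.2 (chr15:93234363-93234700), over the small RNA gene Gm24447, had a mean of 97.5, and NONMMUT044785.2 (chr3:108554338-108554751), over the small Cajal body RNA gene Scarna2, one of 70.4. NONMMUT011311.2 (chr11:86812765-86816129), 5019 bases before Dhx40, had a mean of 62.3. None of these 6 was called in any comparison.

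A comparison of model with control livers asks what repeated CCl4 changed. Of the 1224 members, 37 were called (3.02%), 23 higher and 14 lower in the model livers, at an adjusted p under 0.05 and a log2 fold change over 1 in size. Of all 50485 tested rows, 4.78% were called, 3.91% higher and 0.870% lower, and of the NONCODE rows that overlap an Ensembl row 3.26%. The 37 members form 32 loci, and 5 of the 37 had a mean of 0.5 or more in 1 group alone. Fold changes are on the log2(FPKM + 1) scale, which understates changes of low rows. The median of all tested rows was 0.26 on that scale in this comparison and 0.01 after median-ratio scaling, and the median of the members was 0.19. With that scaling the count was again 37, with 13 higher and 24 lower, and of all rows 3.53% were called, 1.55% higher and 1.98% lower. A pseudocount of 0.1 gave 135 called members and voom on recovered fragments 103, with 10.9% and 9.52% of all rows called. The p-values set each difference between groups against the spread between livers, estimated from all 4 groups in 1 fit.

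NONMMUT104237.1 (chr18:26004299-26005640, minus strand) overlaps the RefSeq lncRNA gene Gm33228. It was at 4.05, 5.09 and 3.11 FPKM in the control livers, 30.9, 50.2 and 39.4 in the model livers, 10.6, 8.74 and 7.34 with silibinin and 9.97, 6.71 and 9.53 with phloridzin. The 3 model livers were above all 9 others, and both drug groups stayed above the control livers. It rose in the model group (log2 fold change 3.01, SE 0.24, limma with Benjamini-Hochberg adjusted p 0.000179), by 2.75 more than the median of all rows. NONMMUT017649.2 (chr13:55184771-55186647, plus strand), in no annotated gene and 16012 bases past the 3′ end of Fgfr4, stood at 9.72, 7.8 and 7.24 FPKM in control, 61.5, 106 and 83.2 in model, 19.2, 13.8 and 35.9 in silibinin and 15.9, 29.95 and 60.1 in phloridzin livers. Control livers were lowest and model livers highest, with model 1 and phloridzin 3 close to each other. It rose (log2 fold change 3.17, SE 0.46, limma with Benjamini-Hochberg adjusted p 0.0035; 2.72 after median-ratio scaling), while the row of Fgfr4, a growth factor receptor gene, stood at 12.6, 12.8 and 12.8 FPKM in control and 13.5, 17.8 and 16.2 in model livers and was not called (log2 fold change 0.28, SE 0.21, limma with Benjamini-Hochberg adjusted p 0.377). The neighbouring NONMMUT089907.1 (chr13:55186264-55187796) had 0.85, 6.8 and 7.74 FPKM among the controls, 22.2, 47.2 and 35.2 among the model livers, 5.18, 4.64 and 12 under silibinin and 3.1, 9.97 and 21.2 under phloridzin. Model livers were above control livers, with control 1 far below control 2 and control 3. It rose as well (log2 fold change 2.78, SE 0.72, limma with Benjamini-Hochberg adjusted p 0.0318), but this call was lost without control 1, control 2, model 1, model 2 or model 3 in turn (adjusted p 0.0527 to 0.0888) and after median-ratio scaling (0.0968).

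NONMMUT117757.1 (chr4:149435549-149437175, minus strand), 8800 bases before Ube4b, was at 2.41, 2.12 and 3.25 FPKM in the control livers, 17.6, 24.3 and 25.7 in the model livers, 15.3, 8.29 and 12.8 with silibinin and 18.5, 9.46 and 17.7 with phloridzin. Control livers were lowest, and phloridzin 1 and phloridzin 3 lay within the model range. The rise in the model group was called (log2 fold change 2.71, SE 0.30, limma with Benjamini-Hochberg adjusted p 0.00095), and neither drug group differed from the model group by a called change (adjusted p 0.138 with silibinin and 0.303 with phloridzin). NONMMUT016573.2 (chr13:21764550-21767823, minus strand), 10047 bases from the histone gene Hist1h2bn, stood at 1.43, 1.34 and 0.0613 FPKM in control, 8.81, 12.9 and 11 in model, 4.64, 3.17 and 4.34 in silibinin and 5.13, 3.21 and 5.62 in phloridzin livers. The lowest liver was control 3 and the highest were the 3 model livers. It rose (log2 fold change 2.69, SE 0.32, limma with Benjamini-Hochberg adjusted p 0.00142). NONMMUT069592.2 (chr9:65083279-65084501, plus strand) lies 628 bases past the last base of the Dpp8 row and overlaps the RefSeq span of Dpp8. It had 0.117, 0.0829 and 0.112 FPKM among the controls, 6.85, 7.47 and 7.28 among the model livers, 7.96, 7.69 and 8.67 under silibinin and 0.104, 0.141 and 5.86 under phloridzin. All control livers and 2 of the phloridzin livers were near 0, while phloridzin 3 was close to the model and silibinin livers. The rise in the model group was called (log2 fold change 2.89, SE 0.56, limma with Benjamini-Hochberg adjusted p 0.0104) and was lost by voom on recovered fragments (adjusted p 0.093).

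Falls in the model group were led by NONMMUT047548.2 (chr4:61783123-61801286, plus strand), over Mup-ps16 in the cluster of major urinary protein genes. It was at 5.25, 8.24 and 3.01 FPKM in the control livers, 0, 0 and 0.133 in the model livers, 0, 0 and 0 with silibinin and 0.261, 0 and 0 with phloridzin. All control livers were far above the others, and 7 of the 9 other livers were listed at 0. It is 1 of the 7 members with a mean of 0.5 or more in the control group alone, so its fall is given without a test. Mup genes are near-identical copies, and reads may be split among them. NONMMUT034473.2 (chr19:32543346-32563256, plus strand), a spliced transcript of Gm36419, stood at 4.76, 5.42 and 2.98 FPKM in control, 0.629, 0.141 and 1.05 in model, 6.81, 6.08 and 1.98 in silibinin and 5.4, 4.31 and 3.36 in phloridzin livers. The 3 model livers were below all 9 others, and silibinin 3 was the lowest of the drug-treated livers. It fell in the model group (log2 fold change -1.76, SE 0.37, limma with Benjamini-Hochberg adjusted p 0.0151), a call lost without control 2 (adjusted p 0.0537) or model 2 (0.0509). NONMMUT145873.1 (chr19:23067419-23073656, plus strand) overlaps the lncRNA gene C330002G04Rik. It had 3.02, 2.15 and 2.38 FPKM among the controls, 0.323, 0 and 0.412 among the model livers, 1.56, 1.54 and 1.12 under silibinin and 0.697, 1.12 and 1.53 under phloridzin. Model livers were lowest, control livers highest, and the drug-treated livers lay between. The fall was called (log2 fold change -1.51, SE 0.19, limma with Benjamini-Hochberg adjusted p 0.00174; -1.71 after median-ratio scaling).

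NONMMUT146241.1 (chr2:27625236-27625634, plus strand) lies 50806 bases before Rxra, a nuclear receptor gene, and was at 2.57, 3.19 and 2.84 FPKM in the control livers, 0.989, 0.618 and 0 in the model livers, 1.36, 1.83 and 1.43 with silibinin and 1.276, 2.49 and 1.91 with phloridzin. Control livers were highest and model livers lowest, with the drug-treated livers between. The fall was called (log2 fold change -1.39, SE 0.24, limma with Benjamini-Hochberg adjusted p 0.00723) and was lost by voom (adjusted p 0.065). The Rxra row was lower too, from 112, 98.7 and 102 FPKM in control to 73.6, 68.5 and 67.2 in model livers, short of the fold threshold (log2 fold change -0.57, SE 0.14, limma with Benjamini-Hochberg adjusted p 0.0293). NONMMUT043736.2 (chr3:87010137-87012244, minus strand) overlaps the RefSeq span of the antigen-presenting gene Cd1d1. It stood at 2.18, 2.76 and 2.91 FPKM in control, 0.862, 0.131 and 0.265 in model, 0.685, 0.68 and 0.655 in silibinin and 1.79, 0.806 and 0.496 in phloridzin livers. Control livers were above all 9 others. It fell (log2 fold change -1.38, SE 0.24, limma with Benjamini-Hochberg adjusted p 0.00712), and the Cd1d1 row had a lower level short of the fold threshold (log2 fold change -0.73, SE 0.16, limma with Benjamini-Hochberg adjusted p 0.0156). NONMMUT145427.1 (chr18:46643141-46645628) had 3.32, 5.73 and 2.61 FPKM among the controls, 0.139, 0.424 and 0.735 among the model livers, 1.94, 1.61 and 3.22 under silibinin and 0.0984, 4.85 and 1.13 under phloridzin. Model livers were below the control livers, and phloridzin 1 was below all 3 of them. Its fall passed by a small margin (log2 fold change -1.74, SE 0.51, limma with Benjamini-Hochberg adjusted p 0.0491) and was lost without any 1 of the livers other than phloridzin 1 and phloridzin 2 (adjusted p 0.0608 to 0.141), and after median-ratio scaling (0.0518).

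**Figure D2:**
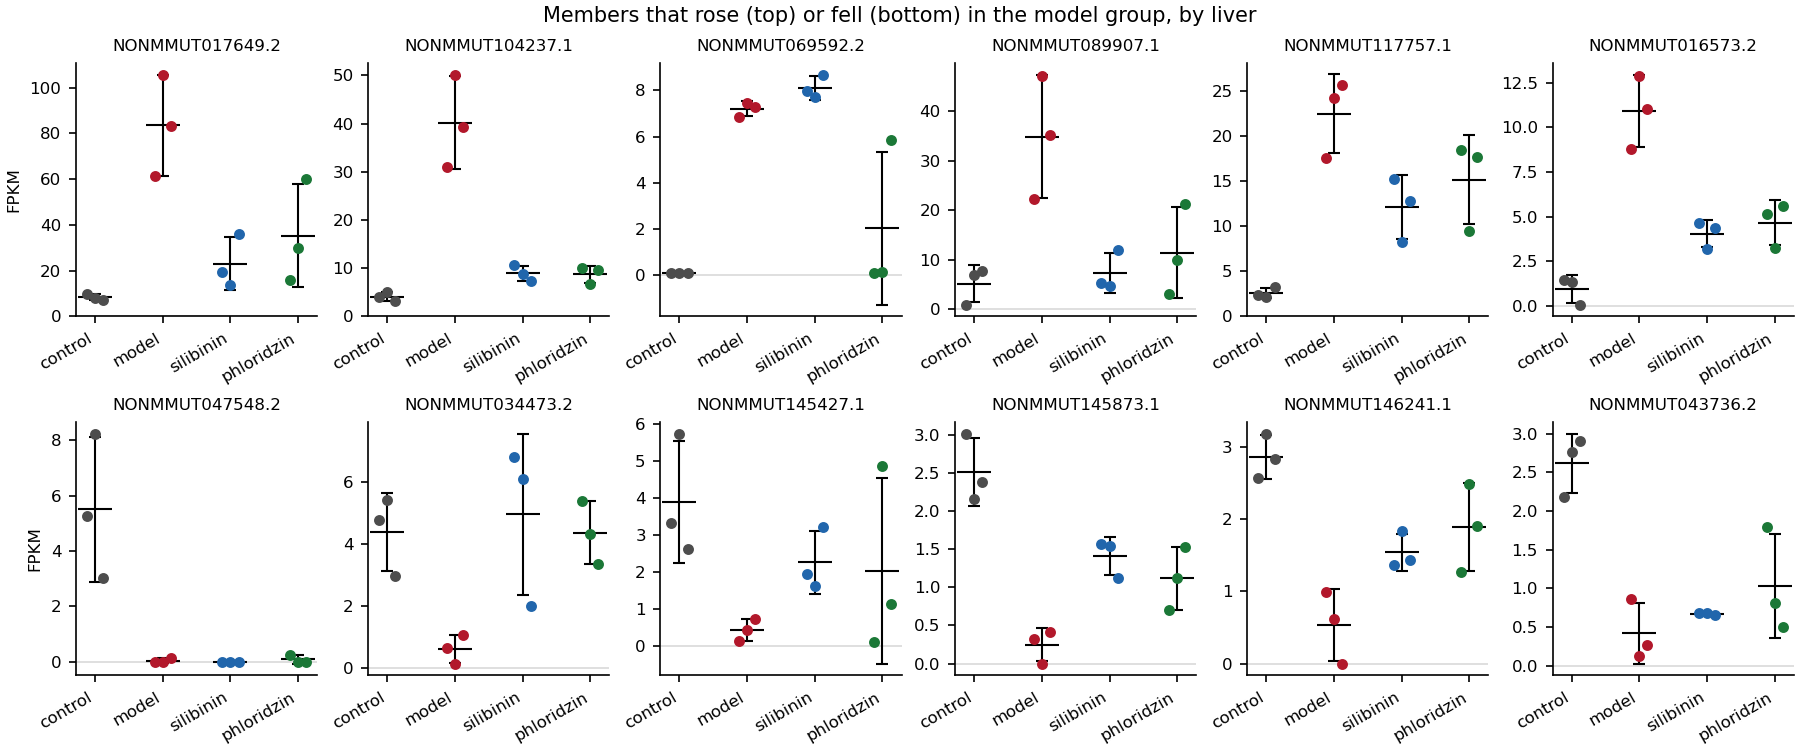
FPKM of the 12 members named for model against control, by liver (dots), with the group mean (line) and SD (bars, 3 livers per group); the upper panels show rises and the lower panels falls. NONMMUT104237.1 has its 3 model livers at 30.9 to 50.2 FPKM and all other livers at or under 10.6.

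By overlap with annotated genes the 37 called members were 19 of 445 at no gene, 10 of 390 at a lncRNA gene, 7 of 333 at a coding gene, 1 of 44 at a pseudogene and 0 of 12 at a small or ribosomal RNA gene. Of all members 3.02% were called, and of all tested rows 4.78%. Of the 601 members beyond 5000 bases from an Ensembl row 26 were called (4.33%), and of the 623 closer ones 11, beside 4.78% of all tested rows. The nearest expressed Ensembl gene was called in the same direction for 3 of the 37 and in the other direction for 0, and among all members 3.92% had a called nearest gene. Whether members in any of these classes are called more often than other rows was not tested.

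The silibinin comparison asks what the drug changed in livers under CCl4. Of the 1224 members 23 were called (1.88%), 11 higher and 12 lower than in the model livers. Of all tested rows 2.03% were called, 0.398% higher and 1.64% lower. The median of the members was -0.07 and that of all rows -0.15, and after median-ratio scaling 12 were called higher and 5 lower, beside 0.606% of all rows higher and 0.810% lower. The count was 13 without model 2, 14 without silibinin 1, 14 without silibinin 2 and 9 in a fit of only these 2 groups, with 1.47%, 1.2796%, 1.47% and 1.14% of all rows called. Of the 23, 2 had a mean of 0.5 or more in 1 group alone. Both drugs are set against the same 3 model livers, so the calls of the drug comparisons are not independent of each other or of those above.

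NONMMUT053078.2 (chr5:91251680-91253524, minus strand) lies in no annotated gene, 103248 bases from Areg, and was at 0.0309, 0.09998 and 0.0445 FPKM in the control livers, 5.09, 2.47 and 4.35 in the model livers, 0.112, 0.088 and 0.0246 with silibinin and 0.377, 0.103 and 0.0495 with phloridzin. The 3 model livers were far above all 9 others, which reached at most 0.377. It is 1 of the 16 members with a mean of 0.5 or more in the model group alone, so its differences from the model group are given without a test. Areg encodes amphiregulin, a ligand of the epidermal growth factor receptor, and its row was at 1.94, 2.73 and 2.94 FPKM in the model livers and listed at 0 in the other 9. NONMMUT104237.1 fell with silibinin (log2 fold change -2.04, SE 0.24, limma with Benjamini-Hochberg adjusted p 0.00185). For NONMMUT017649.2 the fall with silibinin was at the threshold (log2 fold change -1.89, SE 0.46, limma with Benjamini-Hochberg adjusted p 0.0498) and was lost without any 1 of the livers other than phloridzin 1 and phloridzin 3 (adjusted p 0.052 to 0.146) and after median-ratio scaling (0.138). NONMMUT016694.2 (chr13:24304780-24306543, minus strand), 20861 bases from Cmah, had 1.22, 1.59 and 1.07 FPKM among the controls, 5.41, 3.35 and 2.3 among the model livers, 0.691, 0.849 and 0.227 under silibinin and 0.455, 0.823 and 1.04 under phloridzin. Model livers were above all others, and every drug-treated liver was below every control liver. It fell with silibinin (log2 fold change -1.53, SE 0.25, limma with Benjamini-Hochberg adjusted p 0.0106), a call lost in the fit of only these 2 groups (adjusted p 0.0924).

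A pair of members precedes the Mir23a hairpin on chromosome 8. NONMMUT152261.1 (chr8:84203084-84204459, plus strand), which begins 35 bases past Gm37352 on the same strand, was at 0.94, 0.777 and 0.484 FPKM in the control livers, 5.63, 4.15 and 5.42 in the model livers, 1.83, 1.55 and 1.35 with silibinin and 2.44, 2.18 and 1.62 with phloridzin. Model livers were highest, control livers lowest and the drug-treated livers between. It rose in the model group (log2 fold change 1.81, SE 0.16, limma with Benjamini-Hochberg adjusted p 0.00039) and fell with silibinin (log2 fold change -1.23, SE 0.16, limma with Benjamini-Hochberg adjusted p 0.0039). The Gm37352 row was at 0.623, 0.326 and 0.46 FPKM in control, 2.16, 2.1 and 2.32 in model, 1.02, 0.86 and 0.595 in silibinin and 1.33, 1.01 and 0.591 in phloridzin livers. Its model livers too were above all 9 others. It was called higher in the model group (log2 fold change 1.12, SE 0.16, limma with Benjamini-Hochberg adjusted p 0.00295), and its lower level with silibinin was short of the fold threshold (log2 fold change -0.81, SE 0.16, limma with Benjamini-Hochberg adjusted p 0.0214). NONMMUT152262.1 (chr8:84207910-84208424, plus strand), which ends 93 bases before the Mir23a hairpin, stood at 1.29, 1.13 and 0.337 FPKM in control, 7.82, 3.77 and 3.66 in model, 1.13, 1.44 and 1.39 in silibinin and 2.68, 2.19 and 1.26 in phloridzin livers. The model livers were again above all others, with model 1 the highest. It rose in the model group (log2 fold change 1.64, SE 0.30, limma with Benjamini-Hochberg adjusted p 0.00793), a call lost in the fit of only these 2 groups (adjusted p 0.0531). Its fall with silibinin (log2 fold change -1.33, SE 0.30, limma with Benjamini-Hochberg adjusted p 0.0353) was lost without control 2, model 1, model 2, silibinin 1, silibinin 2, silibinin 3 or phloridzin 2 in turn (adjusted p 0.0525 to 0.114) and after median-ratio scaling (0.0637). On the opposite strand, the Zswim4 row was higher in the model livers short of the fold threshold (log2 fold change 0.84, SE 0.16, limma with Benjamini-Hochberg adjusted p 0.0102).

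NONMMUT034473.2 rose with silibinin (log2 fold change 1.81, SE 0.37, limma with Benjamini-Hochberg adjusted p 0.0267), a call lost without model 1, model 2, silibinin 1 or silibinin 2 (adjusted p 0.0638 to 0.095). NONMMUT034474.2 (chr19:32543346-32563063), another transcript of Gm36419, was at 1.91, 3.36 and 1.37 FPKM in the control livers, 1.16, 0.174 and 0 in the model livers, 3.19, 5.6 and 2.87 with silibinin and 3.01, 1.89 and 1.49 with phloridzin. Silibinin livers overlapped with the control range and lay above the model livers. Its rise with silibinin was called (log2 fold change 1.80, SE 0.35, limma with Benjamini-Hochberg adjusted p 0.0204) and was lost without model 2, model 3, silibinin 1 or silibinin 2 (adjusted p 0.0572 to 0.0738). NONMMUT128064.1 (chr8:10906839-10908050, plus strand), 2946 bases past 4833411C07Rik, stood at 3.85, 5.3 and 4.32 FPKM in control, 1.76, 1.3 and 1.46 in model, 4.61, 4.96 and 7.46 in silibinin and 3.3, 4.43 and 3.66 in phloridzin livers. The 3 model livers were below all 9 others. It fell in the model group (log2 fold change -1.13, SE 0.19, limma with Benjamini-Hochberg adjusted p 0.00579) and rose with silibinin (log2 fold change 1.39, SE 0.19, limma with Benjamini-Hochberg adjusted p 0.00412). NONMMUT107582.1 (chr2:103821614-103824129, plus strand) had 0.831, 2.52 and 1.34 FPKM among the controls, 0.513, 0.329 and 0.714 among the model livers, 3.17, 4.6 and 3.26 under silibinin and 1.79, 2.27 and 1.51 under phloridzin. Silibinin livers were above all 9 others, and model livers were below all others. Its rise was called (log2 fold change 1.62, SE 0.24, limma with Benjamini-Hochberg adjusted p 0.0057).

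NONMMUT141784.1 (chr12:24635611-24638019, minus strand) overlaps the RefSeq span of the pseudogene Gm6969. It was at 1.95, 3.5 and 2.17 FPKM in the control livers, 0.953, 0.593 and 1.11 in the model livers, 3.3, 4.04 and 2.77 with silibinin and 2.02, 2.29 and 2.38 with phloridzin. Model livers were below all 9 others. It rose with silibinin (log2 fold change 1.21, SE 0.19, limma with Benjamini-Hochberg adjusted p 0.0083), a call lost in the fit of only these 2 groups (adjusted p 0.0552), and so did the Ensembl row of Gm6969 (log2 fold change 1.16, SE 0.25, limma with Benjamini-Hochberg adjusted p 0.0318), with the reservation that reads of a pseudogene may be shared with its copies. NONMMUT131791.1 (chr8:119892058-119895443, minus strand), 14917 bases before Usp10 on the opposite strand, had 1.49, 0 and 3.66 FPKM among the controls, 0, 0 and 0 among the model livers, 2.96, 4.6 and 2.6 under silibinin and 3.26, 2.71 and 5.1 under phloridzin. It was listed at 0 in the 3 model livers and in control 2, and was above 0 in every drug-treated liver. Its rise with silibinin (log2 fold change 2.11, SE 0.46, limma with Benjamini-Hochberg adjusted p 0.0318) was lost without control 1, any 1 model liver or any 1 silibinin liver (adjusted p 0.05 to 0.102) and after median-ratio scaling (0.0566). The row of Usp10, a deubiquitinase gene, was not called with silibinin (log2 fold change 1.16, SE 0.39, limma with Benjamini-Hochberg adjusted p 0.132). It was called lower in the model livers than in control (log2 fold change -1.69, SE 0.39, limma with Benjamini-Hochberg adjusted p 0.0214), where NONMMUT131791.1 was not called (log2 fold change -1.18, SE 0.46, limma with Benjamini-Hochberg adjusted p 0.11). The nearest expressed Ensembl gene was called in the same direction for 2 of the 23 members and in the other direction for 0, and among all members 2.04% had a called nearest gene.

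The phloridzin comparison asks the same of the other drug. Of the 1224 members 17 were called (1.39%), 4 higher and 13 lower than in the model livers, against 1.95% of all tested rows, 0.355% higher and 1.60% lower. The median of the members was -0.12 and that of all rows -0.14, and after median-ratio scaling 8 were called higher and 6 lower, beside 0.557% of all rows higher and 0.747% lower. The count was 11 without model 2, 30 without model 3, 9 without phloridzin 2 and 4 in a fit of only these 2 groups, with 1.34%, 2.24%, 1.07% and 0.541% of all rows called. The nearest expressed Ensembl gene was called in the same direction for 2 of the 17 and in the other direction for 0, and among all members 1.88% had a called nearest gene. Of the 17, 2 had a mean of 0.5 or more in 1 group alone.

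NONMMUT149212.1 (chr5:135622606-135628962, plus strand), 3656 bases before Rhbdd2, was at 3.14, 2.26 and 2.61 FPKM in the control livers, 0.0113, 0.00775 and 0.00785 in the model livers, 1.43, 0.966 and 12.6 with silibinin and 13, 7.57 and 12.5 with phloridzin. The 3 model livers were near 0, the control livers between 2.26 and 3.14, and silibinin 3 stood with the phloridzin livers rather than with silibinin 1 and silibinin 2. It rose with phloridzin (log2 fold change 3.54, SE 0.59, limma with Benjamini-Hochberg adjusted p 0.0118), a call lost by voom (adjusted p 0.229). Summed with the left-out row of the same NONCODE gene it had the opposite sign, at -1.33 (limma with Benjamini-Hochberg adjusted p 0.198), so the rise of the single transcript is not a rise of its NONCODE gene. NONMMUT104237.1 fell with phloridzin (log2 fold change -2.07, SE 0.24, limma with Benjamini-Hochberg adjusted p 0.00198). NONMMUT025978.2 (chr16:23192150-23203867, plus strand) stood at 4.84, 4.2 and 3.42 FPKM in control, 2.69, 1.59 and 2.05 in model, 7.22, 5.84 and 4.92 in silibinin and 6.23, 4.82 and 5.07 in phloridzin livers. Model livers were below all 9 others, and every drug-treated liver but phloridzin 2 was above all control livers. It rose with phloridzin (log2 fold change 1.04, SE 0.19, limma with Benjamini-Hochberg adjusted p 0.0169), a call lost without model 2 (adjusted p 0.06), phloridzin 1 (log2 fold change 0.95) or phloridzin 2 (0.0502).

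NONMMUT016693.2 (chr13:24291394-24291805, minus strand), in the pseudogene Gm11340, was at 1.06, 1.12 and 0.975 FPKM in the control livers, 4.58, 2.94 and 2.16 in the model livers, 1.8, 0.744 and 0.287 with silibinin and 0.523, 0.301 and 0.567 with phloridzin. Model livers were above all others, and phloridzin livers were below every control liver. It fell with phloridzin (log2 fold change -1.49, SE 0.28, limma with Benjamini-Hochberg adjusted p 0.0176), a call lost without model 1, model 2, phloridzin 2 or phloridzin 3 (adjusted p 0.0513 to 0.0734). Its neighbour NONMMUT016694.2 also fell (log2 fold change -1.36, SE 0.25, limma with Benjamini-Hochberg adjusted p 0.0175), a call lost without model 2 (0.0533) or phloridzin 2 (0.0597). NONMMUT034473.2 rose (log2 fold change 1.76, SE 0.37, limma with Benjamini-Hochberg adjusted p 0.0304), a call lost without model 1, model 2 or any 1 phloridzin liver (adjusted p 0.0618 to 0.0986). NONMMUT131791.1, listed at 0 in the model livers, rose (log2 fold change 2.20, SE 0.46, limma with Benjamini-Hochberg adjusted p 0.0279), a call lost without any 1 model or phloridzin liver (adjusted p 0.0543 to 0.0916). NONMMUT060442.2 (chr7:28256748-28261828, minus strand), 6053 bases from Eid2, had 0.803, 1.07 and 0.771 FPKM among the controls, 1.81, 3.64 and 1.997 among the model livers, 0.458, 0.882 and 0.363 under silibinin and 1.001, 0.255 and 0 under phloridzin. The 3 model livers were above all others. It fell with phloridzin (log2 fold change -1.32, SE 0.27, limma with Benjamini-Hochberg adjusted p 0.0267), a call lost without model 2, phloridzin 2 or phloridzin 3 (adjusted p 0.0811 to 0.0962) and after median-ratio scaling (0.0546).

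NONMMUT146349.1 (chr2:75637983-75642836, plus strand) was at 0, 2.03 and 0.497 FPKM in the control livers, 0.83, 4.94 and 5.72 in the model livers, 0, 0 and 0.385 with silibinin and 0, 0 and 0 with phloridzin. It was listed at 0 in every phloridzin liver, and model 1 was below control 2. Outside the model group only control 2 was above 0.5 FPKM, so it reached the level threshold largely through the model livers. Its fall with phloridzin, though called, is thus given without a test. That call was lost without any 1 of the livers other than control 1, control 2 and model 1, and after median-ratio scaling. Its locus also holds NONMMUT107355.1 of the same NONCODE gene, which stood at 11.4, 2.81 and 1.38 FPKM in control, 2.83, 4.75 and 3.48 in model, 6.54, 7.66 and 1.49 in silibinin and 10.4, 9.34 and 3.23 in phloridzin livers. In that member phloridzin 1 and phloridzin 2 were above the model livers and phloridzin 3 within their range. The sum of the 2 had a log2 fold change of -0.01. On the opposite strand NONMMUT038016.2 (chr2:75638123-75642862), which covers nearly the same span, had 0, 0 and 0 FPKM among the controls, 0, 7.43 and 7.17 among the model livers, 0, 0 and 0 under silibinin and 2.14, 0 and 0 under phloridzin. It was listed at 0 in 9 livers. Outside the model group only phloridzin 1 was above 0, so this member is given without a test too.

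**Figure D3:**
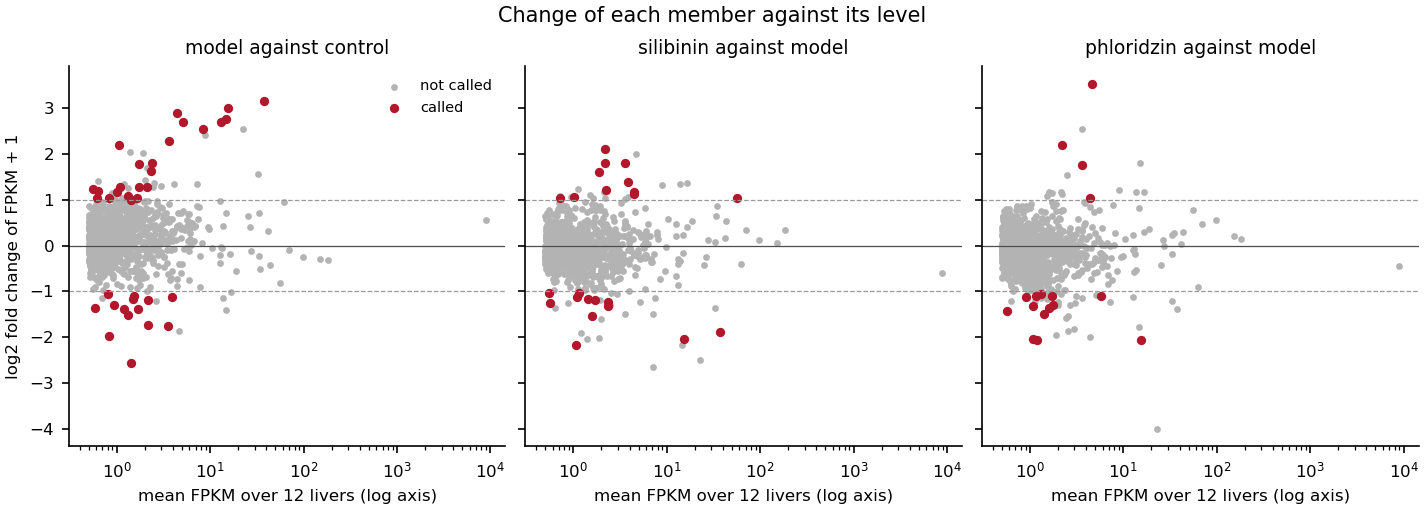
Log2 fold change of each of the 1224 members against its mean FPKM on a log axis, for the 3 comparisons with or against the model group; red points are called, dashed lines mark a log2 fold change of 1 in size. There are 37 red points for model against control, 23 for silibinin and 17 for phloridzin.

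The direct comparison of phloridzin with silibinin tests whether the effects of the drugs differ. No member was called by limma, and voom on the recovered fragments called 0 as well. At an unadjusted p under 0.05 there were 47 of 1224 members (3.84%) and 3.90% of all rows, and 0.0277% of all rows were called, 0.00990% higher and 0.0178% lower. NONMMUT129048.1 (chr8:85614425-85615708, plus strand), 11294 bases past Gm45424, had the smallest p and values of 1.01, 1.13 and 1.4 FPKM in control, 0.391, 0.376 and 0.428 in model, 1.38, 1.48 and 1.32 in silibinin and 0.633, 0.58 and 0.728 in phloridzin livers. The phloridzin livers lay between the model livers and the other groups and did not overlap with the silibinin livers. The difference was not called (log2 fold change -0.54, SE 0.11, limma with Benjamini-Hochberg adjusted p 0.585). NONMMUT086761.1 (chr12:29154520-29155295, plus strand), over the lncRNA gene Gm31333, had 1.23, 1.68 and 1.48 FPKM among the controls, 1.34, 1.23 and 1.004 among the model livers, 1.47, 1.36 and 1.44 under silibinin and 0.757, 0.271 and 0.51 under phloridzin. The phloridzin livers were below all 9 others, and the difference from silibinin was not called (log2 fold change -0.69, SE 0.14, limma with Benjamini-Hochberg adjusted p 0.623). For NONMMUT104237.1 the difference between the drugs was -0.03 with an SE of 0.24. Differences of several times their SE were thus not called with 3 livers per group, and a p above the threshold does not show that the drugs act alike.

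Members at miRNA genes were grouped after their values had been seen. Of these 20 members, 9 hold a hairpin and 11 lie beside 1, of which 5 have 10 or fewer bases between, and 17 are unspliced. The called ones were 2 in model against control, 1 with silibinin against model, 0 with phloridzin against model and 0 between the drugs, and their median log2 fold changes were 0.29, -0.43, -0.41 and -0.02. Over all members the medians were 0.19, -0.07, -0.12 and -0.08, and over all tested rows 0.26, -0.15, -0.14 and 0.00. The shares called, in the first 3 comparisons, were 3.02%, 1.88% and 1.39% of all members and 4.78%, 2.03% and 1.95% of all rows. Whether these differ from other members was not tested.

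At Mir148a, 3 members surround the hairpin on the minus strand of chromosome 6. NONMMUT150428.1 (chr6:51269915-51270891), with 4 bases between it and the hairpin on the 5′ side, was at 0.798, 1.88 and 1.65 FPKM in the control livers, 6.07, 3.2 and 2.4 in the model livers, 0.777, 1.8 and 0.706 with silibinin and 1.65, 1.2 and 1.24 with phloridzin. NONMMUT150427.1 (chr6:51269409-51269811), which begins at the first base after the hairpin, stood at 0.495, 1.6 and 1.13 FPKM in control, 4.27, 2.67 and 2.8 in model, 0.907, 1.61 and 0.969 in silibinin and 1.26, 1.02 and 1.26 in phloridzin livers. NONMMUT150426.1 (chr6:51268497-51269322), 489 bases after the hairpin, had 1.001, 2.47 and 1.39 FPKM among the controls, 6.66, 3.7 and 5.62 among the model livers, 1.6, 2.11 and 0.957 under silibinin and 1.87, 2.00 and 0.0492 under phloridzin. In all 3 the model livers were above all 9 others. Only NONMMUT150427.1 passed the test in the model group (log2 fold change 1.05, SE 0.22, limma with Benjamini-Hochberg adjusted p 0.0155), and its call was lost without control 1 (log2 fold change 0.83), without model 1 (0.88), after median-ratio scaling (0.74) and in the fit of only these 2 groups (adjusted p 0.0779). By the same test the other 2 were not called (adjusted p 0.0587 and 0.0599). With silibinin and with phloridzin NONMMUT150427.1 was lower than in the model group, short of the fold threshold (log2 fold changes -0.97 and -0.94).

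**Figure D4:**
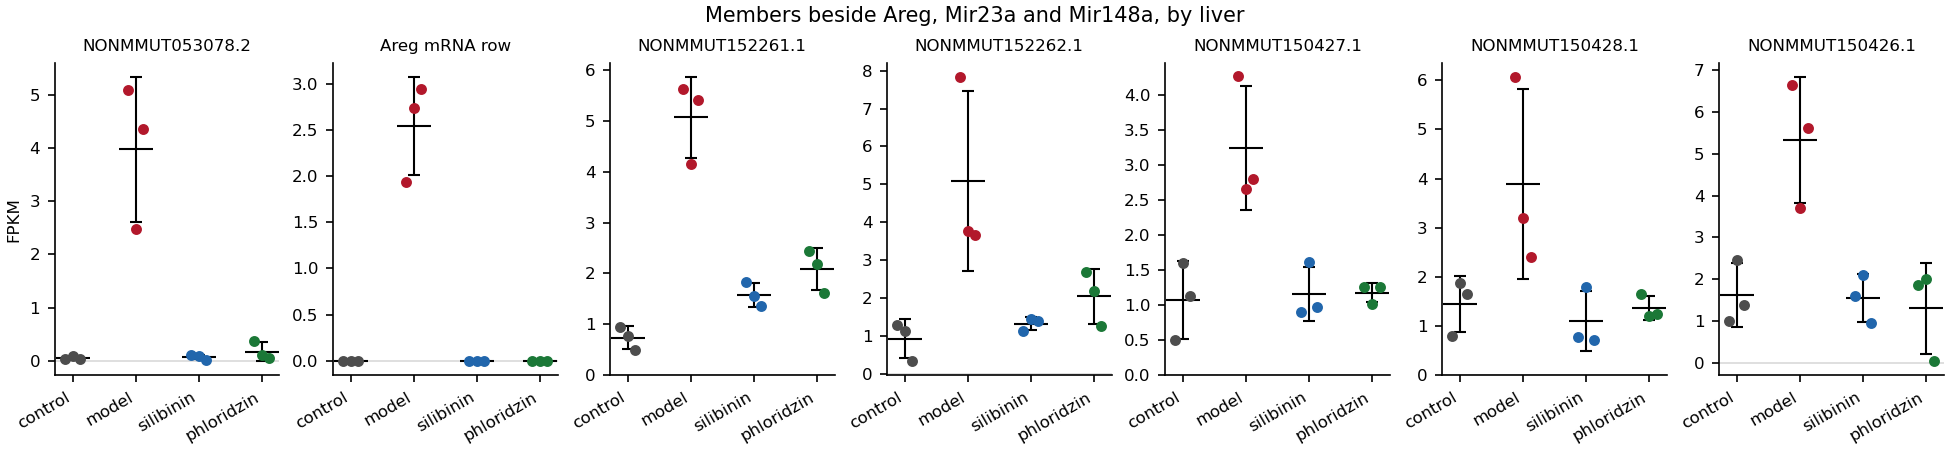
FPKM by liver (dots) with the group mean (line) and SD (bars, 3 livers per group) of NONMMUT053078.2, the Areg row, the pair of members before Mir23a and the 3 members around Mir148a. Areg is listed at 0 in the 9 livers outside the model group.

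NONMMUT140596.1 (chr11:87755563-87757709, plus strand) holds Mir142, a miRNA of blood cells, and was at 0.465, 0.778 and 0.57 FPKM in the control livers, 1.75, 2.22 and 2.05 in the model livers, 1.22, 1.66 and 0.973 with silibinin and 1.99, 1.12 and 0.87 with phloridzin. All livers given CCl4 were above all control livers, and phloridzin 1 lay within the model range. It was higher in the model group without passing the fold threshold (log2 fold change 0.91, SE 0.19, limma with Benjamini-Hochberg adjusted p 0.0132). NONMMUT154261.1 (chrX:19145276-19146985, minus strand) holds Mir221 and Mir222 and had 0.425, 0.842 and 0.345 FPKM among the controls, 1.8, 1.58 and 1.7 among the model livers, 1.07, 0.994 and 0.864 under silibinin and 0.672, 0.463 and 0.563 under phloridzin. Model livers were above all 9 others. Its level in the model group missed the fold threshold (log2 fold change 0.82, SE 0.13, limma with Benjamini-Hochberg adjusted p 0.0055), as did its lower level with phloridzin (log2 fold change -0.78, SE 0.13, limma with Benjamini-Hochberg adjusted p 0.0136). NONMMUT150292.1 (chr6:31063876-31064146, minus strand), 782 bases before Mir29b-1, stood at 1.09, 0.476 and 0.404 FPKM in control, 2.03, 2.95 and 1.84 in model, 0.726, 1.2 and 1.11 in silibinin and 1.08, 0.951 and 1.27 in phloridzin livers. Model livers were above all 9 others, and the value was just under the fold threshold (log2 fold change 0.99, SE 0.19, limma with Benjamini-Hochberg adjusted p 0.00949). NONMMUT009389.2 (chr11:43370962-43374514), which holds Mir146, was at 0.161, 0.0831 and 0.0437 FPKM in control and 0.528, 0.935 and 0.764 in model livers, without overlap and short of the fold threshold (log2 fold change 0.66, SE 0.18, limma with Benjamini-Hochberg adjusted p 0.0375). At hairpins of liver miRNAs, NONMMUT145792.1 (Mir192 and Mir194-2) had a log2 fold change of -0.38 and NONMMUT144470.1 (Mir802) of -0.27, neither called, with -0.72 and -0.43 after median-ratio scaling. At Mir122 the sign was the other way, with 0.29 for NONMMUT145455.1 and 0.25 for NONMMUT145665.1, neither called. After median-ratio scaling these were 0.08 and -0.11. NONMMUT056152.2 (Mir29a and Mir29b-1, 0.28) and the 2 members beside Mir193a, NONMMUT140543.1 (0.05) and NONMMUT140544.1 (-0.10), were not called in any comparison. Nor were the members at Mir30a, Mir30d, Mir5100 and Mir7078, and NONMMUT145455.1 and NONMMUT145665.1 at Mir122. NONMMUT145453.1, also at Mir122, reached a mean of 0.5 in the phloridzin group alone and is given without a test.

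**Figure D5:**
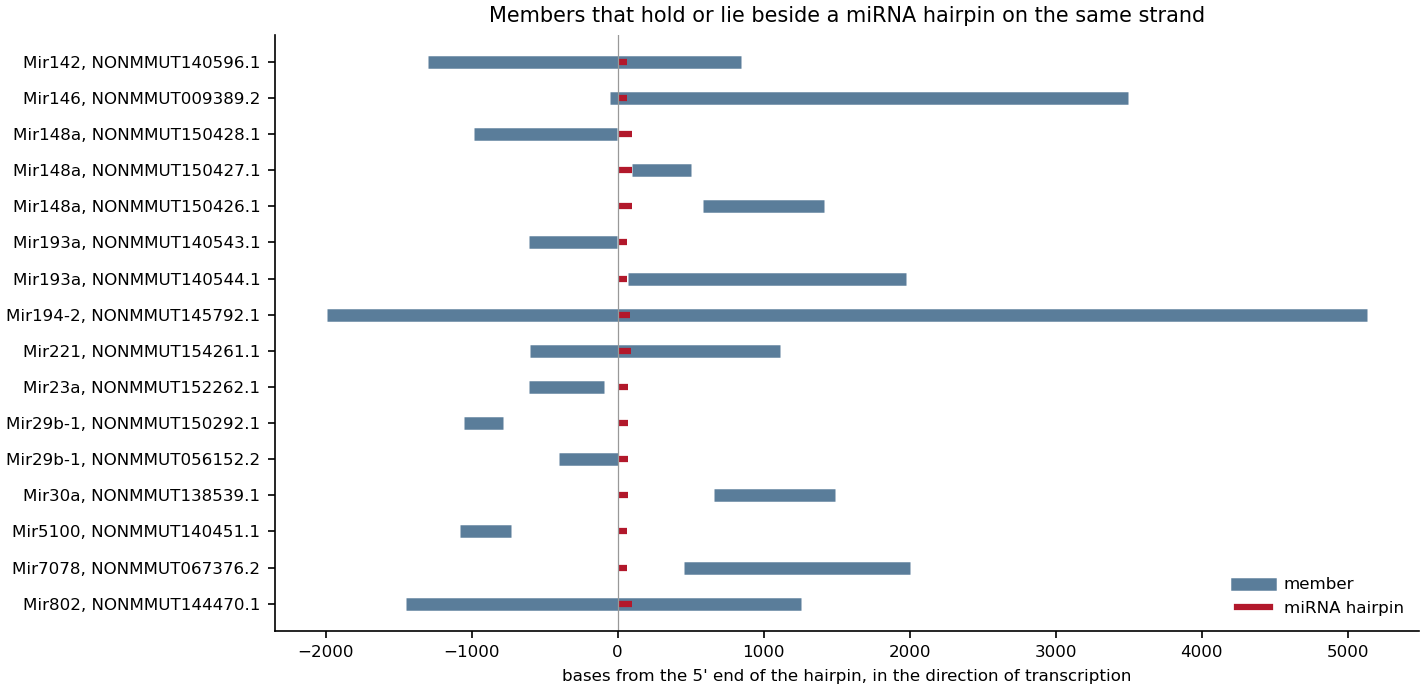
Position of the 16 members whose miRNA hairpin had a sequence entry (blue) relative to that hairpin (red), in bases from the hairpin's 5′ end in the direction of transcription; a member at more than 1 hairpin is drawn once. NONMMUT150427.1 begins 0 bases and NONMMUT150428.1 ends 4 bases from the Mir148a hairpin.

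Overlapping lncRNA genes with a name of their own, a group also picked after the values were seen, are 18 members at 14 genes. Of these 0 were called in model against control, 1 with silibinin, 0 with phloridzin and 0 between the drugs, with 4.78%, 2.03%, 1.95% and 0.0277% of all rows called. In model against control 5 were higher and 1 lower at an adjusted p under 0.05, which 13.9% of all members and 14.2% of all rows reached. The median log2 fold change was 0.53, beside 0.19 for all members and 0.26 for all rows. Whether this differs was not tested. Zfas1 has 3 members. NONMMUT146580.1 (chr2:167063223-167065722) was at 0.435, 0.246 and 0.139 FPKM in the control livers, 1.34, 1.24 and 1.18 in the model livers, 0.0536, 0.172 and 0.0865 with silibinin and 1.25, 0.2001 and 0.252 with phloridzin. The model livers and phloridzin 1 were high, and the silibinin livers were below control 1 and control 2. Outside the model group only phloridzin 1 was above 0.5 FPKM, so it reached the level threshold largely through the model livers. Its fall with silibinin, though called, is thus given without a test. That call was lost without any 1 model or silibinin liver, after median-ratio scaling and by voom. NONMMUT146579.1 was higher in the model group short of the fold threshold (log2 fold change 0.91, SE 0.15, limma with Benjamini-Hochberg adjusted p 0.00591). Neat1, which builds the paraspeckles of the nucleus, has 3 members, and NONMMUT033637.2 (chr19:5843698-5843984) stood at 6.33, 6.84 and 3.56 FPKM in control, 31.1, 4.91 and 7.1 in model, 5.26, 4.15 and 3.32 in silibinin and 7.68, 4.92 and 5.34 in phloridzin livers. Model 1 alone was high, and the difference was not called (log2 fold change 0.85, SE 0.53, limma with Benjamini-Hochberg adjusted p 0.309; 0.44 after median-ratio scaling). NONMMUT023024.2 in Snhg18 (log2 fold change 0.77, SE 0.16, limma with Benjamini-Hochberg adjusted p 0.0132) and NONMMUT144643.1 in Dubr (log2 fold change 0.57, SE 0.12, limma with Benjamini-Hochberg adjusted p 0.013) were higher in the model group, short of the fold threshold. NONMMUT032610.2 in Carmn, a lncRNA of smooth muscle and stellate cells, was also short of it (log2 fold change 0.50, SE 0.15, limma with Benjamini-Hochberg adjusted p 0.0474). NONMMUT037924.2 in Chrna1os had 1.21, 1.93 and 2.37 FPKM among the controls, 0.776, 0.86 and 0.587 among the model livers, 1.03, 1.68 and 1.11 under silibinin and 1.53, 1.24 and 1.52 under phloridzin. Its model livers were below all control livers. It was lower in the model group, short of the fold threshold (log2 fold change -0.69, SE 0.17, limma with Benjamini-Hochberg adjusted p 0.0287; -0.93 after median-ratio scaling).

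Marker genes were read in the Ensembl rows to describe the cell makeup of each liver, and a link between them and any member was not tested. The 8 stellate cell and myofibroblast genes, led by Col3a1, summed to 15.1, 10.1 and 11.2 FPKM in control livers, 133, 112 and 143 in model livers, 135, 129.9 and 54.3 with silibinin and 198, 68.3 and 52.6 with phloridzin. Silibinin 3, phloridzin 2 and phloridzin 3 were lower than the other livers given CCl4. Of these genes 3 were called higher in the model group and 0 with either drug. Of all tested rows 3.91% were called higher in the model group, and 2.03% and 1.95% were called with silibinin and phloridzin. The macrophage list (6 genes, led by Csf1r) summed to 35.8, 51.1 and 48 FPKM in control, 73, 133 and 124 in model, 95.4, 112 and 104 in silibinin and 162, 145 and 74.7 in phloridzin livers, with 1 of 5 tested genes called higher in the model group. The 3 proliferation genes, led by Top2a, summed to 0.159, 0.489 and 0.792 FPKM among the controls, 5.96, 7.43 and 7.86 among the model livers, 12.5, 10.7 and 7.11 under silibinin and 48, 5.29 and 4.73 under phloridzin. All livers given CCl4 were above the control livers, phloridzin 1 by far, and 0 of the 3 were called. The 2 red cell genes, led by Hbb-bs, summed to 875, 790.2 and 747 FPKM in control, 612, 486 and 362 in model, 353, 298 and 184 in silibinin and 179, 525 and 654 in phloridzin livers, with every liver given CCl4 below every control liver and 0 called. The cholangiocyte list (4 genes, 2 tested, led by Sox9) summed to 1.76, 2.89 and 1.92 FPKM among the controls, 3.73, 5.59 and 4.4 among the model livers, 4.09, 3.71 and 6.87 under silibinin and 5.71, 4.62 and 7.15 under phloridzin, and the lymphocyte list (4 genes, 1 tested, led by Nkg7) to 0.759, 1.3 and 0.754 FPKM in control, 2.43, 4.19 and 2.19 in model, 1.44, 3.55 and 2.52 in silibinin and 4.94, 3.24 and 2.96 in phloridzin livers. In both every liver given CCl4 was above every control liver, and 0 were called. No gene was called in the hepatocyte list (7 genes, led by Alb, sums from 16847 to 33755), the endothelial list (5, Clec4g) or the pancreas list, where only Cela1 was tested and Cpb1 was listed at 0. Of 38 genes of transcription termination and RNA decay, led by Pabpc1, 37 were found (all but Skiv2l2), 36 were tested and 0 were called in any comparison. Their sum was 214, 209 and 211 FPKM in control, 241, 286 and 314 in model, 207, 235 and 218 in silibinin and 255, 228 and 217 in phloridzin livers, with the model livers above the control livers, and the fold changes had medians of 0.12, -0.28, -0.25 and 0.07.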

How the data were processed

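Livers of 12 mice in 4 groups of 3 (control, model, silibinin, phloridzin) were profiled by sequencing of total RNA. The FPKM values were made by the authors before deposit, with bcl2fastq, FastQC 0.11.5, HISAT2 2.1.0, StringTie 1.3.3b and DESeq 1.28.0 named in the submitters' notes, on build mm10 (GRCm38). Each transcript and liver has 1 deposited FPKM value, and whether counting used strand is not given in the sources used here, so a member opposite another transcript cannot be told apart from it by strand.

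Members were chosen as the report's opening states, with the left-out rows and the marker lists fixed when earlier results of these data were known. Overlap with assembled rows, GC content and repeats were not analysed here. The plan had a count test in the event of counts. The values are FPKM, so limma was used on log2(FPKM + 1), with all 4 groups in 1 fit, rows with a mean of 0.5 or more, trend and Benjamini-Hochberg adjustment over all 50485 tested rows. A call needs an adjusted p under 0.05 and a log2 fold change over 1 in size. Steps between values of low rows gave library sizes and whole fragment numbers for 1220 of 1224 members (tolerance 0.02). The limma fit was tested on simulated data, and this recovery was not.

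Named members are the 6 most abundant, and per comparison the 6 largest rises and 6 largest falls among called members whose groups do not overlap and whose mean is 1 or more. Where none was called, they are the 2 with the smallest p. Rows next to the level threshold and the nearest expressed Ensembl row were added. The miRNA and named lncRNA groups were formed after the values were seen. Gene names are from GENCODE M21, where 99.8% of the Ensembl rows were found, 98.6% of those with the same symbol in the table. Sequences are from RefSeq GRCm38.p6 and GENCODE M21.

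Alternatives were a pseudocount of 0.1, minimum means of 0.1 and 1, only the 2 groups compared, a replicate block, median-ratio scaling, no fold threshold, adjustment over NONCODE rows alone, sums over loci, voom on recovered fragments, members 5000 bases or more from any Ensembl row, the left-out rows put back, and each liver left out. Sums over NONCODE genes were chosen after seeing the data. Marker lists were hepatocyte, stellate cell and myofibroblast, macrophage, endothelial, cholangiocyte, lymphocyte, proliferation, red cell and pancreas genes, and genes of transcription termination and RNA decay. Tools were R 4.3.3, limma 3.58.1, data.table version 1.17.8, Python 3.11.15, numpy 2.4.6, pandas 2.3.3 and matplotlib 3.10.9.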

Additional observations from a re-analysis of the deposited data

How the results depend on the processing

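Counts of called members below are for model against control, silibinin against model, phloridzin against model and phloridzin against silibinin, which were 37, 23, 17 and 0. A pseudocount of 0.1 gave 135, 38 and 41 for the first 3, or 11.0%, 3.10% and 3.35% of members beside 10.9%, 2.72% and 2.58% of all rows. Without a fold threshold they were 170, 52 and 47 (13.9%, 4.25% and 3.84%, beside 14.2%, 4.54% and 4.40% of all rows). A fit of only the 2 groups compared called 9 with silibinin and 4 with phloridzin (0.735% and 0.327%, beside 1.14% and 0.541% of all rows). Voom on recovered fragments called 103 in model against control and 26 with phloridzin (8.44% and 2.13%, beside 9.52% and 2.27% of all rows). Among the 601 members 5000 bases or more from any Ensembl row, 12 were called with silibinin and 11 with phloridzin. These are 2.00% and 1.83% of that smaller set, beside 2.03% and 1.95% of all rows. Each of the other alternatives stayed within 1.5 times these counts: 31, 19, 16 and 0 with a minimum mean of 0.1 in the fit, 29, 21, 16 and 0 with 1, 37, 17, 14 and 0 with median-ratio scaling, 41, 20, 18 and 0 adjusted over NONCODE rows alone, 33, 21, 18 and 0 as sums over loci, 40, 25, 19 and 0 with the left-out rows put back, and 35, 23, 19 and 0 as sums over NONCODE genes, an alternative chosen after seeing the data. With a minimum mean of 1 only 513 members remained. Of these 5.65%, 4.09% and 3.12% were called, beside 3.02%, 1.88% and 1.39% of the 1224 members. Of all rows the first 3 comparisons called 2.45%, 0.998% and 0.963% with a minimum mean of 0.1, and 6.30%, 2.82% and 2.63% with 1. They called 4.79%, 2.04% and 1.96% with sums over loci, and 4.83%, 2.07% and 1.97% with sums over NONCODE genes. Adjusted over NONCODE rows alone, they called 3.55%, 1.21% and 1.504% of the 8508 NONCODE rows. The cause of these differences in count was not tested.

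The replicate block gave 34, 20, 16 and 0, with 4.37%, 1.62%, 1.57% and 0.0178% of all rows called. The numbers do not pair the livers: deviations of same-numbered livers had correlations from -0.069 to 0.034 over 18 pairs, and 1 liver correlated best with its own number.

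Leaving out 1 liver in turn gave 31 to 44, 13 to 24, 9 to 30 and 0 to 1, with 3.74% to 5.18%, 1.2796% to 2.14%, 1.07% to 2.29% and 0.0238% to 0.0773% of all rows called. With silibinin it was 13 without model 2, 14 without silibinin 1 and 14 without silibinin 2 (1.47%, 1.2796% and 1.47% of all rows). With phloridzin it was 11 without model 2, 30 without model 3 and 9 without phloridzin 2 (1.34%, 2.24% and 1.07% of all rows). Between the drugs it was 1 without silibinin 3 and 1 without phloridzin 3 (0.0713% and 0.0773%).

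Of 33 changes picked by the naming rule for single members, 13 kept their direction and their side of the threshold in every run. Over the other settings 312 values kept their direction and side, 49 lost the call and 1 reversed, and with livers left out 315 kept it and 81 lost it. The 49 were lost 14 times by voom, 13 by the fit of 2 groups, 7 by median-ratio scaling, 4 each by the pseudocount and the minimum mean of 0.1, 3 by the block, 2 by sums over loci and 1 each by sums over NONCODE genes and adjustment over NONCODE rows. Among these changes voom lost NONMMUT069592.2, NONMMUT145427.1 and NONMMUT146241.1 in model against control, NONMMUT131791.1, NONMMUT034473.2, NONMMUT034474.2, NONMMUT017649.2 and NONMMUT152262.1 with silibinin, and NONMMUT149212.1, NONMMUT131791.1, NONMMUT034473.2, NONMMUT146349.1, NONMMUT016693.2 and NONMMUT060442.2 with phloridzin. The fit of 2 groups lost NONMMUT089907.1 in model against control, NONMMUT034473.2, NONMMUT034474.2, NONMMUT141784.1, NONMMUT017649.2, NONMMUT016694.2 and NONMMUT152262.1 with silibinin, and NONMMUT034473.2, NONMMUT025978.2, NONMMUT146349.1, NONMMUT016693.2, NONMMUT016694.2 and NONMMUT060442.2 with phloridzin. NONMMUT047548.2 and NONMMUT053078.2, for which the report gives no test, are not counted. NONMMUT146349.1, also given without a test, is counted. Also outside this tally are called changes that the report names beyond the rule: NONMMUT152261.1, NONMMUT152262.1, NONMMUT128064.1 and NONMMUT150427.1 in model against control, and NONMMUT146580.1 with silibinin, whose losses stand in the report. The reversed value is NONMMUT149212.1 in phloridzin against model, at -1.33 as a sum with the left-out row of its NONCODE gene, a setting chosen after seeing the data. With 3 livers per group, a change that was not called may still be present, and FPKM of overlapping transcript models depends on how reads were divided among them.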

Other observations

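In 11 members the livers of 1 group differed by more than 100-fold, with a highest value of 5 FPKM or more. NONMMUT100751.1 on chromosome 17 read 0.153, 20.1 and 0.227 FPKM in control, 20.7, 0.151 and 18.3 in model, 0.288, 0.224 and 0.232 in silibinin and 0.157, 0.216 and 25.5 in phloridzin livers. NONMMUT034447.2 on chromosome 19, overlapping the RefSeq span of A1cf, read 20.1, 24.3 and 0.00401 FPKM in control, 0.021, 26.1 and 0.0175 in model, 0.0946, 0.00396 and 41.4 in silibinin and 33.5, 33.5 and 0.00446 in phloridzin livers. For NONMMUT031987.2 on chromosome 18 model 1 alone was near 0, with 13.5, 17.5 and 11.4 FPKM in control, 0.0268, 16.3 and 16 in model, 14.7, 15.6 and 18 in silibinin and 12.2, 16.4 and 14.2 in phloridzin livers. NONMMUT145453.1, over Mir122, was high in phloridzin 2 alone, with 0.00104, 0.0987 and 0.0548 FPKM in control, 0.201, 0.0785 and 0.225 in model, 0.043, 0.0798 and 0.0823 in silibinin and 0.254, 29 and 0.0344 in phloridzin livers. The other members of this kind were NONMMUT067376.2, NONMMUT123262.1, NONMMUT067160.2, NONMMUT038016.2, NONMMUT147091.1, NONMMUT047549.2 and NONMMUT033627.2. NONMMUT145453.1 and NONMMUT047549.2 reached a mean of 0.5 in 1 group alone and are given without a test. NONMMUT038016.2 is given without a test for the reason stated above. None of the others was called in any comparison.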
